A study of Mus musculus with 4 samples.

Results

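Genes of the matrix glycoproteins, matricellular proteins and proteoglycans were followed in mouse brown adipocytes with and without forced expression of Blnc1, a long noncoding RNA of brown fat. The list named 40 genes by protein family, and was drawn up with earlier results of these data known. Of these, 33 had a probe set annotated with exactly 1 gene symbol, 29 under the listed symbol and 4 (Ctgf, Cyr61, Wisp1 and Wisp2, annotated as Ccn2, Ccn1, Ccn4 and Ccn5) through a synonym in the RefSeq gene table. The other 7 (Spp1, Thbs1, Fbln2, Efemp2, Fbn1, Mfap4 and Nid2) were not analysed here. Where several probe sets read a gene, the one brightest on average across the 4 arrays stands for it, among 10926 genes handled the same way.

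Wild type brown preadipocytes that carried either the vector alone or Blnc1 were turned into adipocytes over 6 days, and total RNA of 2 biological replicates per group was read on Affymetrix mouse perfect-match arrays, which sample the 3' part of transcripts. The labels name no promoter, vector type, clone number or animal age, and they do not say whether replicates came from separate transductions, so p-values measure only the spread between these arrays. All values are on the log2 scale, so a difference of 1 is a doubling, and differences are Blnc1 minus vector. Array medians lay between 5.98 and 6.04, which is the mark for calling a probe set dim below.

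The extracellular matrix is the secreted scaffold around cells. Its glycoproteins and proteoglycans join collagen fibres, elastic fibres and basement membranes and pass signals to cells through integrins and growth factors. Matricellular proteins are secreted into this scaffold and alter how cells attach to it rather than bearing load. Preadipocytes have a fibroblast-like matrix rich in fibronectin, which is remodelled towards a basement membrane as they become adipocytes.

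The groups were checked first. The probe set annotated C730029A08Rik, a symbol that the gene table lists among the synonyms of the Blnc1 locus, read 8.11 ± 0.041 in vector and 12.74 ± 0.0092 in Blnc1 arrays (SD, n = 2 each). Of 11 measured brown and general adipocyte markers, 4 passed as higher in Blnc1 arrays and none as lower: Ucp1, Cidea, Cox7a1 and Cox8b, at 2.997, 3.12, 1.28 and 1.13 (limma adjusted p 2.7e-04 to 0.0120). Over all genes 0.86% passed as higher and 0.366% as lower. Ucp1, which defines heat-producing fat, was dim in both vector arrays (mean 5.01) and stood at 7.97 and 8.05 in the Blnc1 arrays. The general adipocyte genes Fabp4, Adipoq and Lpl had vector means between 12.85 and 13.28 and differences of 0.0016, -0.12 and -0.046. Of the 11 markers 8 were positive and 3 negative, with a median of 0.10. All 18 hybridization control probe sets had a lower mean in the Blnc1 arrays (median difference -0.27), and the Gapdh controls read higher at the 3' than at the 5' end by 0.38 and 0.45 in vector and by 0.27 and 0.29 in Blnc1 arrays. The Y-linked Eif2s3y also differed (-1.18 ± 0.078 SE), as did the X-linked Xist (0.55 ± 0.077 SE). The part of these shifts in the results below was not tested.

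Most matrix genes read lower in Blnc1 cells, by modest amounts. Of the 33 measured genes 31 had a negative log2 fold change, which is 93.9% of them against 48.4% of all 10926 genes. The median was -0.27, or 82.9% of the vector level, beside a median of 0.0073 over all genes. Asporin (Aspn), Emilin1 and periostin (Postn) passed the adjusted threshold as lower, and no member passed it as higher. The test was limma with Benjamini-Hochberg adjustment over all 23599 probe sets and a threshold of 0.05, and it called 9.09% of the members lower against 0.366% of all genes. For members higher the count was 0 of 33, against 0.86% of all genes. At an unadjusted p under 0.05, 18 members were lower (9.08% of all genes) and 2 higher (11.7% of all genes).

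The number of calls depended on the fit. The calls were not kept in limma fits that left out 1 array in turn, whichever array it was. In those fits the members' median log2 fold change ran from -0.35 to -0.23. In the other direction, a variance prior that follows intensity gave 14 members called lower (42.4%), where 4.94% of all genes were called lower. At an adjusted p under 0.10 the count was 9 (1.99% of all genes): Bgn, Ecm1, Hspg2, Tgfbi, Thbs2 and Vcan joined the first 3. With a gene's probe sets averaged before the fit it was 6 (1.58%), and among members with a mean of at least 5 or 6 it was 5 of 24 (1.17%) and 8 of 17 (3.49%). In these RNA pools, fewer cells making a transcript and less transcript per cell cannot be told apart.

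The separation of single arrays was wider than the calls. For 24 members both Blnc1 arrays lay below both vector arrays (72.7%, against 24.9% of all genes), for Eln and Prelp both lay above (28.3% of all genes), and for 7 the groups overlapped. Relative to each gene's mean over 4 arrays, the median member stood at 0.11 and 0.15 in the vector arrays and at -0.12 and -0.19 in the Blnc1 arrays. The median gap between the replicates of a member was 0.15 in vector and 0.11 in Blnc1 arrays, beside 0.083 and 0.097 over all genes.

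**Figure D1:**
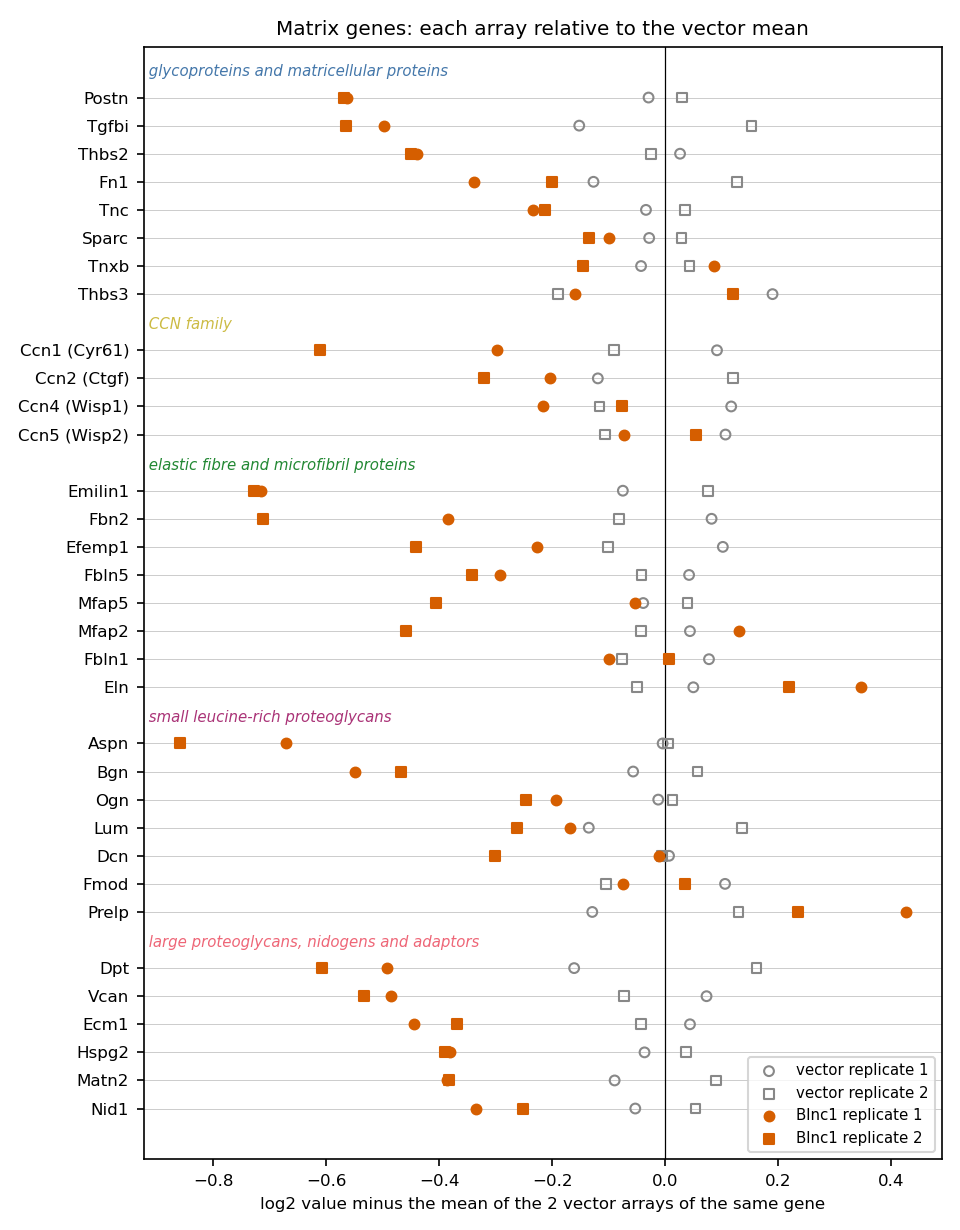
Each row is 1 of 33 matrix genes and each point 1 array, as the log2 value minus the mean of the 2 vector arrays of that gene; open grey points are vector arrays, filled orange points Blnc1 arrays, and circles and squares replicates 1 and 2. For 24 genes both orange points lie left of both grey points, and for Eln and Prelp they lie right of them.

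**Figure D2:**
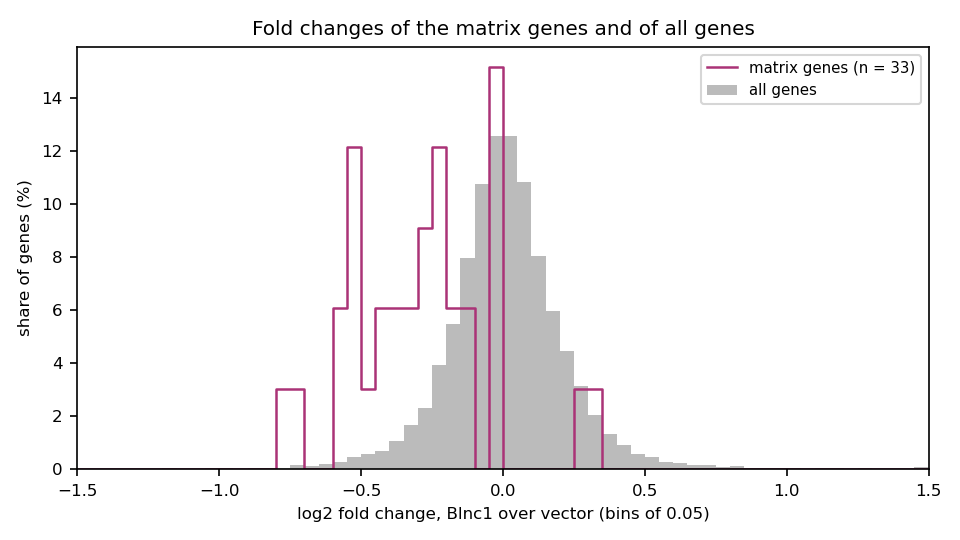
Share of genes (vertical axis, %) by log2 fold change of Blnc1 over vector in bins of 0.05 (horizontal axis), for all 10926 genes (grey bars) and the 33 matrix genes (line); the 8 genes beyond the axis are drawn in the outermost bins. The matrix genes have their median at -0.27 and all genes theirs at 0.0073.

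The promoters of the 3 members called lower are shown because these genes were called together. The stretches are the 250 bases before the RefSeq start site (GRCm38.p6, + strand for all of them), and capitals mark a TATA box (TATAAA) or CCAAT box (CCAAT) on either strand. For Postn the table has a pair of start sites, and the one with the TATA box is shown.
Aspn, chr13:49544193-49544442: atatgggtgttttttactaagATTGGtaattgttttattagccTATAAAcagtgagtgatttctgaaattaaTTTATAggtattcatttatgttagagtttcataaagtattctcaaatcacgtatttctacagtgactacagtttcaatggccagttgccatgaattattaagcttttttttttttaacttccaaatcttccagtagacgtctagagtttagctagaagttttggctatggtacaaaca
Emilin1, chr5:30913536-30913785: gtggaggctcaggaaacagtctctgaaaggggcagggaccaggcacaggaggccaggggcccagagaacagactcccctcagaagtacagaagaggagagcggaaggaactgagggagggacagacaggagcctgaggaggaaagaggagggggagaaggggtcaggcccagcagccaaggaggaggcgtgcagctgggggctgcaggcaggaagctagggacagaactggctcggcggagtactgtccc
Postn, chr3:54360857-54361106: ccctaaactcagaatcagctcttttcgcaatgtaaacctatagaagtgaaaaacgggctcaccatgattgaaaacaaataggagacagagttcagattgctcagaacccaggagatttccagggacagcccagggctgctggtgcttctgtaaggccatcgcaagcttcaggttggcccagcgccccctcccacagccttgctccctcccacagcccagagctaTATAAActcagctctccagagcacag
Postn carries TATAAA 26 bases before this start site. In Aspn the nearest match begins 178 bases before it, and Emilin1 has no match in the stretch shown.

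Promoter windows of 300 bases (250 before and 50 after the start site) were on hand for 23 of the 33 measured members, in 28 windows. TATAAA was found in 9 of these (32.1%) and in 13.6% of all 32851 windows, with matches in Aspn, Ccn1, Dpt, Ecm1, Ogn, Postn, Thbs2 and Tnc. CCAAT was found in 11 windows (39.3%, against 37.4%). The TEAD motif GGAATG was found in 4 (14.3%, against 14.7%), in Ccn1, Mfap2, Nid1 and Ogn. The AP-1 motif TGANTCA was found in 3 (10.7%, against 7.81%), in Ecm1, Efemp1 and Tnxb. The SMAD palindrome GTCTAGAC was in none of them and in 0.213% of all windows. All motifs were searched on both strands, and a match is a description of the letters only.

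Among glycoproteins and matricellular proteins, all 8 measured members stood below 0 (median -0.25), and Postn passed. Postn, a matricellular protein that binds collagens and integrins, read 10.93 and 10.99 in the vector arrays and 10.39 in both Blnc1 arrays. It fell by 0.57 on the log2 scale (0.077 SE, limma adjusted p = 0.0455), to 67.5% of the vector level. The Blnc1 arrays were nearly equal and clearly below both vector arrays. After repeated quantile normalization the limma adjusted p was 0.0507, just above the threshold, and the call was lost.

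Thrombospondin 2 (Thbs2), a secreted inhibitor of blood vessel growth, read 6.14 and 6.09 in vector and 5.68 and 5.67 in Blnc1 arrays. The difference was -0.44 ± 0.076 (SE), with separated groups, but it did not pass (limma adjusted p = 0.0658). Tgfbi, an adhesion protein induced by TGF-beta, was dim at 4.51 and 4.81 in vector and 4.16 and 4.10 in Blnc1 arrays. Its difference of -0.53 ± 0.12 (SE) was of the size of that of Postn, with a wider spread between the vector arrays (limma adjusted p = 0.0997).

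Fibronectin (Fn1), whose fibrils cells grip through integrins, read 9.10 and 9.36 in vector and 8.89 and 9.03 in Blnc1 arrays. The groups did not overlap, yet the gap between them was smaller than that between the vector replicates, and the difference of -0.27 had a 95% interval from -0.55 to 0.0059. Sparc, a collagen-binding matricellular protein, read 11.05 and 11.10 in vector and 10.98 and 10.94 in Blnc1 arrays. Its difference of -0.12 (95% interval -0.31 to 0.071) was one of the smaller ones, and its second probe set stood at -0.34 ± 0.12 (SE) without passing. Tenascin C (Tnc), an anti-adhesive glycoprotein of remodelling tissue, was dim and stood at -0.22 ± 0.078 (SE), with both Blnc1 arrays lower. Thbs3 and tenascin X (Tnxb) were dim, with overlapping arrays and differences of -0.021 and -0.030 whose sign turned when 1 array was left out.

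The CCN proteins are small cysteine-rich matricellular proteins, and Ccn1 and Ccn2 are well-known targets of the mechanosensitive YAP and TAZ coactivators. All 4 were negative, with a median of -0.20, and none passed (limma; 1 was lower at an unadjusted p under 0.05, beside 9.08% of all genes). Ccn1 (Cyr61) read 7.43 and 7.25 in vector and 7.04 and 6.73 in Blnc1 arrays. Its difference of -0.45 ± 0.13 (SE, limma adjusted p = 0.151) came with separated groups but a wide spread in both. This probe set is of a kind prone to cross-hybridisation, and the other Ccn1 probe set gave -0.15 ± 0.079 (SE).

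Ccn2 (Ctgf) read 6.02 and 6.26 in vector and 5.94 and 5.82 in Blnc1 arrays, a difference of -0.26 (95% interval -0.53 to 9.2e-04). Both Blnc1 arrays were lower, but the nearest arrays of the groups were closer than the vector replicates were to each other. Ccn4 (Wisp1) and Ccn5 (Wisp2) were dim and their arrays overlapped, at -0.15 ± 0.11 and -0.0094 ± 0.10 (SE); Ccn5 changed sign when 1 array was left out.

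The elastic fibre is a core of elastin laid on fibrillin microfibrils, and 8 of its 12 listed genes were measured. Of these, 7 were negative, with a median of -0.27, and Emilin1 passed. All but Fbln5 and Efemp1, 6 of the 8, were dim in all arrays. Emilin1, a glycoprotein at the interface of elastin and microfibrils, read 5.19 and 5.34 in vector and 4.55 and 4.54 in Blnc1 arrays. It fell by 0.72 on the log2 scale (0.087 SE, limma adjusted p = 0.0380), to 60.6% of the vector level. The Blnc1 arrays were nearly equal, but all 4 readings were dim, where array folds are compressed. A filter at a mean of 5 left it out, so it has no value there.

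Fibrillin 2 (Fbn2), a microfibril subunit, read 5.69 and 5.53 in vector and 5.23 and 4.90 in Blnc1 arrays. The groups were apart, but the Blnc1 arrays differed by more than the nearest arrays of the 2 groups, and the difference of -0.55 ± 0.13 (SE) did not pass (limma adjusted p = 0.112). Fibulin 5 (Fbln5), which tethers elastin to cells and microfibrils, read 6.95 and 6.86 in vector and 6.61 and 6.57 in Blnc1 arrays. Its difference was -0.32 ± 0.080 (SE, limma adjusted p = 0.125). Efemp1, also called fibulin 3, read 8.88 and 8.68 in vector and 8.55 and 8.34 in Blnc1 arrays, with a difference of -0.33 ± 0.11 (SE).

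Elastin itself (Eln) stood on the other side. It read 4.64 and 4.54 in vector and 4.94 and 4.81 in Blnc1 arrays, so both Blnc1 arrays were higher, at a dim level. The difference of 0.28 ± 0.088 (SE) did not pass (limma adjusted p = 0.176). It stayed positive as arrays were left out, from 0.22 to 0.35, and was 0.27 after repeated quantile normalization. The microfibril-associated glycoprotein Mfap5 stood at -0.23 ± 0.13 (SE), with Blnc1 replicate 1 at 5.21 beside vector replicate 1 at 5.23. Without Blnc1 replicate 2 the difference was -0.053. Mfap2 was at 5.42 and 5.34 in vector but 5.51 and 4.92 in Blnc1 arrays, so the Blnc1 replicates lay on both sides, and without Blnc1 replicate 2 its difference turned from -0.16 to 0.13. Fibulin 1 (Fbln1), at -0.046, also overlapped.

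**Figure D3:**
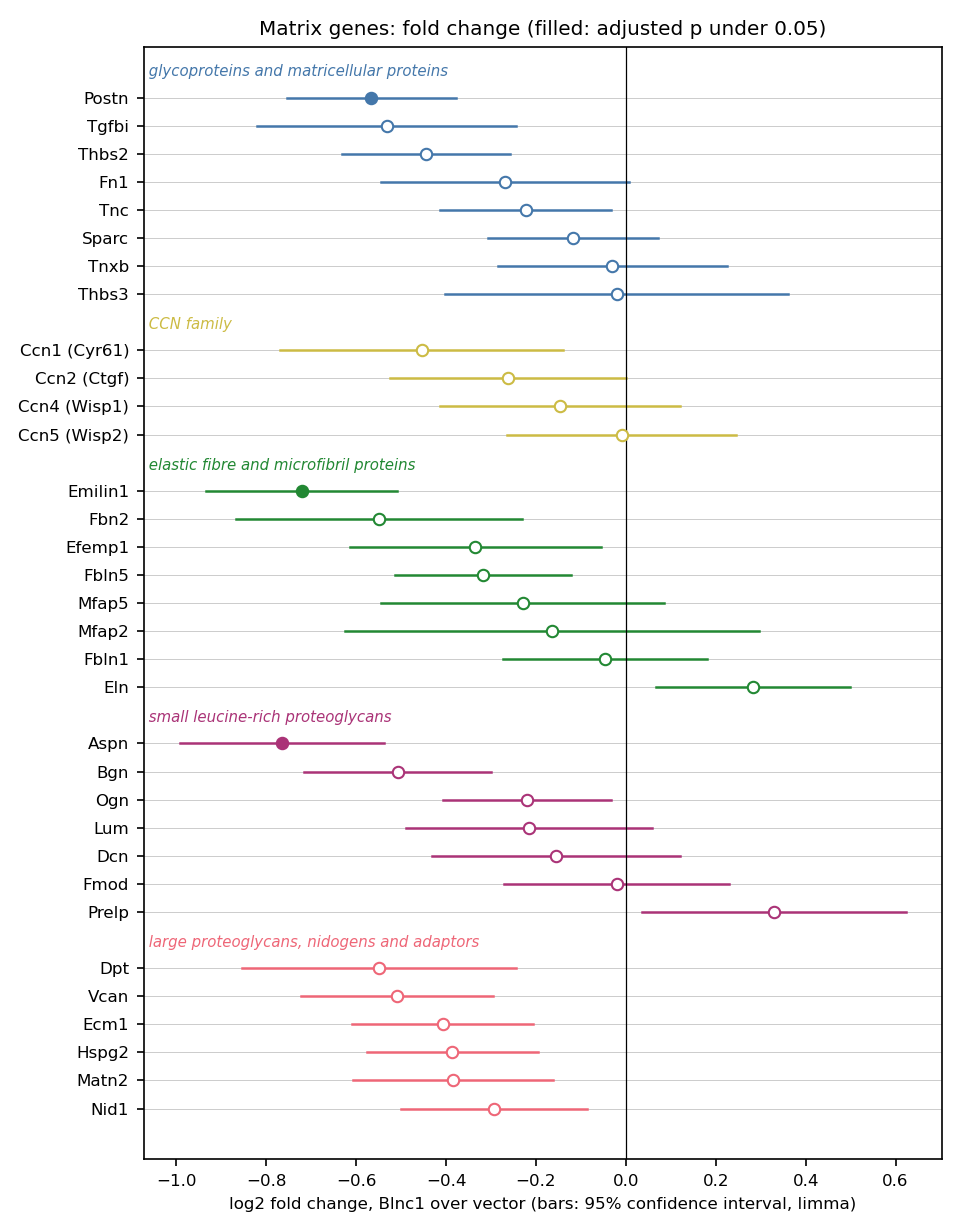
Log2 fold change of Blnc1 over vector (horizontal axis) for 33 matrix genes in rows, coloured by protein family, with limma's 95% confidence intervals as bars; filled points passed an adjusted p of 0.05. Only Postn, Emilin1 and Aspn are filled, and Eln and Prelp are the members right of 0.

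Small leucine-rich proteoglycans sit on collagen fibrils and set their width and spacing. Of 7 listed and measured, 6 were negative, with a median of -0.22, and Aspn passed. Aspn, which carries a run of aspartates and binds collagen and TGF-beta, read 8.09 and 8.10 in vector and 7.42 and 7.24 in Blnc1 arrays. It fell by 0.77 on the log2 scale (0.092 SE, limma adjusted p = 0.0380), to 58.8% of the vector level, the lowest of the 33 members. Vector arrays were nearly equal, and the Blnc1 arrays differed by far less than the groups. Its second probe set stood at -0.73 ± 0.12 (SE) with both Blnc1 arrays lower, and did not pass (limma adjusted p = 0.0644); it stands for the gene when probe sets prone to cross-hybridisation are left out, and the call is then lost.

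Biglycan (Bgn), which binds collagen and TGF-beta, read 10.48 and 10.60 in vector and 9.99 and 10.07 in Blnc1 arrays. The difference was -0.51 ± 0.085 (SE), with clearly separated groups, and it missed the threshold (limma adjusted p = 0.0640). The second Bgn probe set gave the same difference, -0.51 ± 0.088 (SE, limma adjusted p = 0.0667). Decorin (Dcn), the close relative of biglycan, read 6.999 and 6.986 in vector and 6.98 and 6.69 in Blnc1 arrays. Only Blnc1 replicate 2 was clearly lower, and the difference of -0.16 had a 95% interval from -0.43 to 0.12. Without that array it was -0.010.

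Osteoglycin (Ogn) read 8.25 and 8.28 in vector and 8.07 and 8.02 in Blnc1 arrays, a difference of -0.22 ± 0.077 (SE), while its other probe set stood at -0.048. Lumican (Lum) was dim, at 4.40 and 4.67 in vector and 4.36 and 4.27 in Blnc1 arrays. Its groups were barely apart, and the difference of -0.22 ± 0.11 (SE) was -0.080 without vector replicate 2. Fibromodulin (Fmod) was dim too, at -0.021, with overlapping arrays. Prelp, which anchors basement membranes to connective tissue, was the other member above 0, with 6.16 and 6.42 in vector and 6.72 and 6.52 in Blnc1 arrays. Its difference of 0.33 ± 0.12 (SE) did not pass (limma adjusted p = 0.218), and its second, dim probe set stood at -0.046.

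Among the large proteoglycans, nidogens and adaptor proteins no member overlapped. All 6 measured members had both Blnc1 arrays below both vector arrays, with a median of -0.40; 24.9% of all genes had that order. None passed in limma; all 6 were lower at an unadjusted p under 0.05, beside 9.08% of all genes. Versican (Vcan), a chondroitin sulphate proteoglycan that binds hyaluronan, read 8.96 and 8.81 in vector and 8.40 and 8.35 in Blnc1 arrays. The difference was -0.51 ± 0.087 (SE, limma adjusted p = 0.0658). Its other probe sets stood at -0.57 ± 0.080 and -0.73 ± 0.14 (SE), and the first of these passed (limma adjusted p = 0.0479), so all 3 readings of Vcan were lower in Blnc1 cells.

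Dermatopontin (Dpt), a decorin-binding protein of collagen fibrils, read 6.44 and 6.77 in vector and 6.11 and 6.00 in Blnc1 arrays. Its difference of -0.55 ± 0.12 (SE) had an adjusted p of 0.105 in limma, and it ranged from -0.71 to -0.39 as arrays were left out. Ecm1, a secreted glycoprotein that binds perlecan, was dim at 5.71 and 5.62 in vector and 5.22 and 5.30 in Blnc1 arrays. Its difference was -0.41 ± 0.082 (SE, limma adjusted p = 0.0866). Matrilin 2 (Matn2), a filament-forming adaptor, read 6.50 and 6.68 in vector and 6.20 and 6.21 in Blnc1 arrays, a difference of -0.38 ± 0.091 (SE). In both genes the groups were apart by more than the replicates differed.

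Basement membrane genes depended on the probe set. Perlecan (Hspg2), the heparan sulphate proteoglycan of basement membranes, read 7.26 and 7.34 in vector and 6.92 and 6.91 in Blnc1 arrays, a difference of -0.39 ± 0.078 (SE, limma adjusted p = 0.0866). Its other probe set stood at 0.044 ± 0.097 (SE) with overlapping arrays. Nidogen 1 (Nid1), which links laminin to collagen IV, read 10.42 and 10.53 in vector and 10.14 and 10.22 in Blnc1 arrays, a difference of -0.29 ± 0.084 (SE, limma adjusted p = 0.154). Its other probe set stood at 0.0032 ± 0.16 (SE), with 6.36 and 5.89 in the vector arrays themselves.

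Over all members, 13 genes had 15 further probe sets. Of these, 12 had the direction of the probe set used and 3 (of Hspg2, Nid1 and Prelp) the opposite one. In 10 of the 15 both Blnc1 arrays lay below both vector arrays, in the other 5 the groups overlapped, and 1 passed as lower. Over all 23599 probe sets 24% were lower without overlap and 0.305% were called lower.

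**Figure D4:**
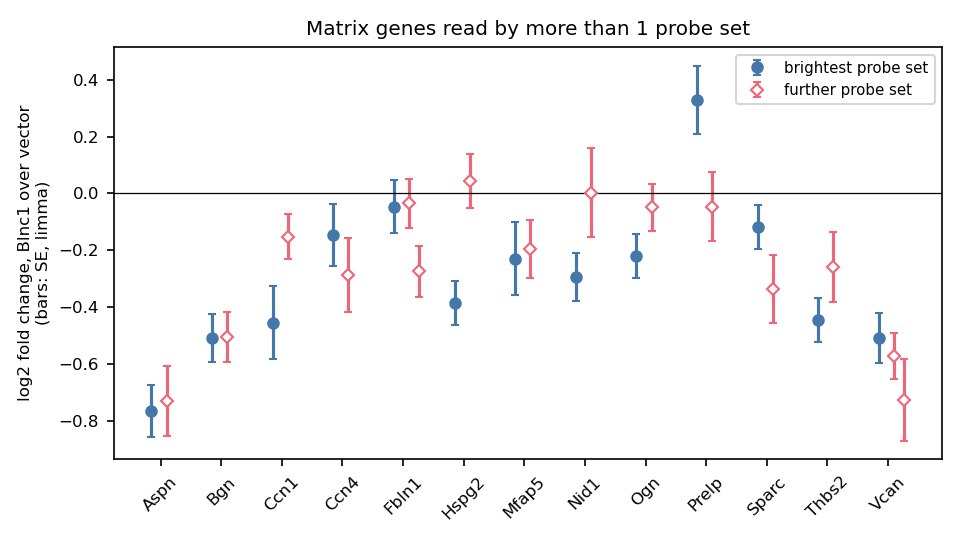
Log2 fold change of Blnc1 over vector (vertical axis, bars are limma's SE) for the 13 matrix genes with several probe sets; filled circles are the brightest probe set of a gene and open diamonds its further probe sets. Those of Aspn, Bgn and Vcan lie close together below 0, while those of Hspg2, Nid1 and Prelp lie on both sides of 0.

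Of 34 measured further matrix glycoproteins and proteoglycans (65 listed), 21 were negative, the median was -0.070, and none passed in limma. At an unadjusted p under 0.05, 7 were lower and 4 higher, beside 9.08% and 11.7% of all genes. Ccn3, another CCN protein, stood at -0.71 ± 0.11 (SE, limma adjusted p = 0.0592) and the secreted glycoprotein Fstl1 at -0.50 ± 0.086 (SE). The Ccn3 probe set is of the kind prone to cross-hybridisation. Without such probe sets Ccn3 stood at -0.48 (limma adjusted p = 0.135). Svep1 and the cell surface proteoglycan Sdc4 stood on the other side, at 0.41 ± 0.081 and 0.32 ± 0.083 (SE). As with the members, these calls depended on the fit. With an intensity-trended prior all 4, the genes of smallest p in their list, passed (limma adjusted p 6.2e-04 to 0.0150). That prior called 1237 of all 10926 genes. After median centring Ccn3 and Fstl1 passed (limma adjusted p 0.0457 and 0.0495), beside 187 of all genes.

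All 7 measured preadipocyte and fibroblast markers (12 listed) had negative differences; their median was -0.34 and their vector means ran from 3.78 to 8.15. Of these the secreted Wnt modulator Sfrp2 fell (-0.82 ± 0.11 SE, limma adjusted p = 0.0455, but 0.0862 to 0.159 with 1 array left out). Dlk1, Fap and Thy1 stood at -0.42, -0.38 and -0.34, and 5 of the 7 were dim in all arrays, among them Pdgfra, which defines these cells. Pdgfra stood at -0.093 ± 0.15 (SE), with overlapping arrays. Of 5 measured myofibroblast and smooth muscle genes 4 were negative, with a median of -0.30 and none passing in limma. At an unadjusted p under 0.05, 3 were lower and 1, Des, higher, beside 9.08% and 11.7% of all genes. Tpm2, Cald1, Acta2 and Des stood at -0.39, -0.38, -0.30 and 0.37. With a gene's probe sets averaged, Tpm2 stood at -0.17 and Cald1 at -0.28, while Acta2 and Des were unchanged. With the intensity-trended prior Dlk1, Fap, Tpm2, Cald1 and Acta2 passed as lower in limma, where 4.94% of all genes were called lower. Only the 4 genes of smallest p in each list were looked up under that prior. The mean log2 value over the preadipocyte markers was 5.52 and 5.47 in vector and 5.18 and 5.10 in Blnc1 arrays, and that over the myofibroblast genes 7.31 in both vector and 7.16 and 7.18 in Blnc1 arrays. The part of either in the levels of the matrix genes was not tested.

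The 3 measured macrophage and leukocyte genes (Cd14, Adgre1 and Csf1r) were dim in all arrays and overlapped, at 0.16, 0.10 and -5.3e-04. The endothelial Kdr was dim in all arrays as well, at -0.0045, and so were the 3 skeletal muscle genes, with Ckm at 0.059, Myog at 0.060 and Des as given above.

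**Figure D5:**
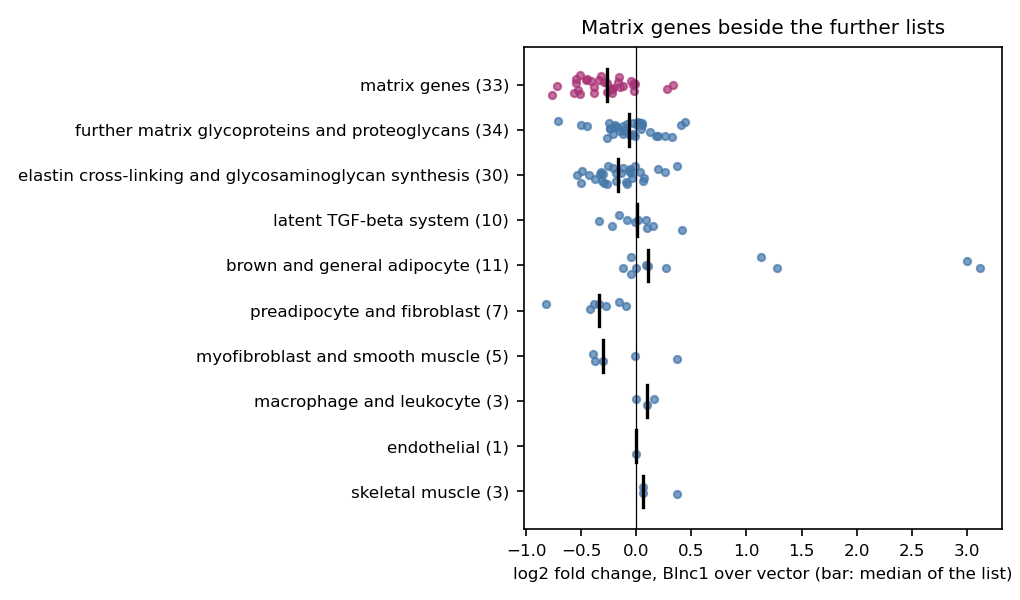
Log2 fold change of Blnc1 over vector (horizontal axis) of single genes (points, spread vertically for sight) in the matrix list and the further lists, with the number measured in brackets and the median as a black bar. The matrix, preadipocyte and myofibroblast lists have medians of -0.27, -0.34 and -0.30, and the adipocyte list one of 0.10.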

How the data were processed

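The authors deposited a table of log2 values with a row per probe set and a column per array; the submitters' processing notes name RMA, affy and limma, without versions, settings or order, and the log2 scale was read from the values. RMA compresses folds of dim probe sets. Of 23634 probe sets 35 controls were left out of the tests. GEO's platform annotation gave 1 symbol to 16692 of the 23599 tested, several to 372 (unnamed) and none to 6535.

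Groups and replicate numbers came from sample titles. Values were fitted with limma 3.58.1 (R 4.3.3: lmFit, eBayes, two-sided, no covariate), with p adjusted over all probe sets and never over a list. On simulated arrays (23599 probe sets, 200 changed, 5 runs) this recovered 90.2% of 2-fold changes, with 4.94% of calls false. All members differed by less than 2-fold, with a median of -0.27 and Aspn furthest from 0 at -0.77. Recovery of differences of that size was not tested. The share of false calls on the real arrays was not tested either. The number of arrays limits precision. Members and lists were chosen with earlier results of these data known. All measured members are named, with the 4 genes of smallest p in each further list; Pdgfra, Fabp4, Adipoq, Lpl, Eif2s3y and Xist were added after their values were seen. Alternatives covered the variance prior, normalization, dim and cross-hybridising probe sets, averaging, thresholds, a replicate block and leaving out arrays. A planned protein comparison was not run.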

Additional observations from a re-analysis of the deposited data

How the results depend on the processing

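Of the 33 measured members 25 kept their direction in every one of the 15 alternatives that gave them a value, 24 of them negative. Changes of the variance prior, the threshold, the filter on dim probe sets or the replicate block leave a gene's log2 fold change as it is. Only normalization, the choice or averaging of probe sets and leaving out arrays could turn a sign. No alternative called a member higher. The 3 members called lower became 14 with an intensity-trended prior, 5 with a mean of at least 5, 8 with a mean of at least 6, 6 with averaged probe sets, 9 at an adjusted p under 0.10 and 0 at 0.01 (limma; 18 lower at an unadjusted p under 0.05). Over all genes the 134 calls became 1237, 274, 614, 467, 545 and 3 under the same settings. Leaving out arrays gave 0 members and 3 to 23 genes. The members' median was -0.33 under either filter on dim probe sets (24 and 17 members left), -0.23 without _s_at and _x_at probe sets and with averaged probe sets, and -0.35 to -0.23 as arrays were left out. Without _s_at and _x_at probe sets Prelp turned to -0.046 and Hspg2 to 0.044, each read by its other probe set. As arrays were left out, signs turned within these ranges: Thbs3 -0.21 to 0.17, Tnxb -0.15 to 0.086, Ccn5 -0.12 to 0.097, Fbln1 -0.12 to 0.031, Fmod -0.13 to 0.085, Mfap2 -0.46 to 0.13, Cd14 -0.018 to 0.33, Adgre1 -0.024 to 0.23, Csf1r -0.088 to 0.087, Kdr -0.14 to 0.13, Ckm -0.049 to 0.17 and Myog -0.025 to 0.14. With an array left out, the lone array of its group is assumed to vary like the others. Causes were not tested.

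Replicate numbers are shared by the groups, but the labels do not say that a number marks a shared batch, and replicate differences of the groups correlated at 0.089 over 23599 probe sets. With the number as a replicate block 0 members and 19 genes passed in limma. Signal over background limits the 15 of 33 members that were dim in all arrays.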

Other observations

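Enzymes that build the sugar chains of proteoglycans and cross-link elastin were lower more often than higher, without a call in the fit used throughout. Of 30 measured genes (38 listed) 24 were negative, with a median of -0.16; both Blnc1 arrays lay below both vector arrays for 17 of them and above for 3, beside 24.9% and 28.3% of all genes. None passed in limma; at an unadjusted p under 0.05, 13 were lower and 1 higher, beside 9.08% and 11.7% of all genes. With an intensity-trended prior Dse, Chst12 and Chst1 passed as lower and Chst15 as higher (limma adjusted p 0.0061 to 0.0496). That prior called 4.94% of all genes lower, and 1237 of all 10926 genes in either direction. Only these genes, those of smallest p in the list, were looked up under it. Dse, the epimerase that turns chondroitin into dermatan sulphate, read 7.05 and 7.18 in vector and 6.60 and 6.64 in Blnc1 arrays, a difference of -0.49 ± 0.085 (SE, limma adjusted p = 0.0666). Its dermatan sulphate chains are carried by Dcn and Bgn, among others. The sulphotransferases Chst12 and Chst1, both dim in all arrays, stood at -0.53 and -0.43. Chst15, which adds a further sulphate to chondroitin, stood at 0.37 ± 0.077 (SE, limma adjusted p = 0.0902).

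The TGF-beta system, which induces many matrix genes, was on both sides. Of 10 measured genes (14 listed) 5 were negative and 5 positive, with a median of 0.0051 and none passing (limma; 1, Tgfbr3, was lower at an unadjusted p under 0.05, beside 9.08% of all genes). Tgfbr3 passed with the intensity-trended prior (limma adjusted p = 0.0018), which called 4.94% of all genes lower. The co-receptor Tgfbr3 stood at -0.34 ± 0.083 (SE) with both Blnc1 arrays lower, and at -0.25 with its probe sets averaged. Smad7, an inhibitor induced by the pathway, stood at 0.41 ± 0.18 (SE), with vector arrays at 4.80 and 5.34. Tgfb3 and Tgif1 stood at -0.22 and 0.15, with overlapping arrays.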
